A study of Homo sapiens with 12 samples.

Results

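The interferon-stimulated genes described here were 54 human genes, chosen by name from a list made with the response of these same samples in view, among 79317 genes that appeared in at least 1 of the deposited count tables. Cells make interferons when they sense viral nucleic acid, and interferon bound at its receptor activates the kinases JAK1 and TYK2, which phosphorylate transcription factors, among them STAT2. With IRF9 these form a complex that binds interferon-stimulated response elements in promoters, and the genes it switches on degrade viral RNA, block viral translation and entry, conjugate the ubiquitin-like protein ISG15 and raise the level of the sensors themselves. Type I and type III interferons use different receptors and the same complex, and many epithelial and tumour cells keep a low level of this program without added interferon.

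The study tested an inhibitor of PTDSS1 (written PTDSS1i), the enzyme that makes phosphatidylserine from phosphatidylcholine, in cultured human tumour cell lines. KYSE30 is an esophageal squamous cell carcinoma line and U138MG is a glioblastoma line, and both are labelled as wild type. Each line was given DMSO, the solvent used as vehicle, or PTDSS1i at 100 nM for 48 h, with 3 libraries in each of the 4 groups and no interferon in any of them. Poly-A RNA of the 12 libraries was sequenced, and each gene has a count of reads in each library.

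Several facts of the whole series bear on what follows. The libraries held between 18800932 and 26514658 counted reads. The labels place all KYSE30 libraries in one batch and all U138MG libraries in another, so line and batch cannot be told apart, and each line is 1 established line. The replicates are numbered 1 to 3, and the labels do not say whether they were separate cultures, so p-values measure only the spread between these libraries. The libraries labelled U138MG held markers that go against that label: the squamous keratins KRT5 and KRT15 averaged 1470 and 4861 reads per 1000000 counted reads (CPM) under DMSO, VIM, the intermediate filament of glioma cells, averaged 0.206 CPM, and OLIG2 and S100B had 0 counts. The lists were not uniform, since 6 of 8 squamous markers passed 1 CPM there with KRT14 (0.198) and KRT6A (0.488) below it, and 4 of 8 markers of glia and mesenchyme did, with SPARC at 713 and SOX2 at 38.9 CPM. They are called the libraries labelled U138MG throughout. The KYSE30 libraries had CDH1 at 514 CPM and TP63 at 98.2 CPM, as squamous cells do, but KRT5 at 0.0608 CPM. Of the same lists, 6 of 8 squamous markers passed 1 CPM in KYSE30 under DMSO, with KRT5 and KRT14 (0.355) below it. So did 4 of 8 markers of glia and mesenchyme (6 were listed), among them SOX2 at 99.4 and FN1 at 98.3 CPM. Of 6 blood and immune markers, none passed 1 CPM under DMSO in KYSE30 (5 were listed) and 1, the lysosomal protein CD68, did so in the libraries labelled U138MG. PTPRC and CD3E stayed below 0.4 CPM in every library. The summed CPM of these markers ranged from 0.395 to 1.12 under DMSO and from 1.29 to 1.49 under PTDSS1i in KYSE30. In the libraries labelled U138MG it ranged from 25.9 to 32.0 and from 101 to 109, nearly all of it from CD68. The summed squamous markers there went from between 6921 and 7717 CPM under DMSO to between 1773 and 1896 under PTDSS1i, and those of glia and mesenchyme from between 818 and 846 to between 389 and 408. In KYSE30 the squamous sum went from between 921 and 988 to between 1169 and 1201, and that of glia and mesenchyme from between 186 and 228 to between 150 and 154. The part of these markers in any result below was not tested.

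Levels are given as normalized CPM, which is CPM with the library size scaled by the trimmed mean of M values (TMM), and always list replicates 1, 2 and 3 in that order. Fold changes are log2 of PTDSS1i over DMSO with the standard error of the edgeR fit (3 libraries against 3). A gene is called when the edgeR quasi-likelihood fit over all genes gave it a p under 0.05 after Benjamini-Hochberg adjustment and a log2 fold change beyond 1 in either direction. Because the genes were listed with these contrasts known, their fold changes, the counts of calls and the difference between lines are descriptions, and no p-value is given for them. In bulk RNA, a lower level per cell and fewer cells that express a gene cannot be told apart.

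Several promoters are shown first, because the choice of genes did not use their sequence. The set was named for its response to interferon, so a high share of the interferon-stimulated response element goes with that choice. RefSeq promoter windows, each reaching from 250 bases before to 50 bases after a transcription start on GRCh38.p14, were matched by symbol for 42 of the 54 genes. The core searched on both strands was GAAANNGAAA, and overlapping copies were counted separately. It was present in at least 1 window of 29 of the 42 genes (69%) and of 1195 of 27305 genes (4.38%). The STAT palindrome TTCNNNGAA, searched the same way, was present in 10 of the 42 genes (23.8%) and in 9.38% of all genes. With 1 mismatch allowed in the core, the shares were 90.5% and 37.7%. Counting once a copy that lies in 2 overlapping windows of a gene, at its nearer start, there were 51 copies (50 genomic positions, since PARP9 and DTX3L share 1). They lay between 196 bases before and 23 bases after a start, with a median of 73 bases before it, and 16 genes had 2 or more copies in a window. A match is a description of the letters and not a bound site.

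The stretches below hold the core in genes that the results turn on, with the core in capitals, each read 5′ to 3′ on its gene's strand. ISG15, IFIT1, ISG20 and BST2 were raised in KYSE30. IFIT1 and BST2 fell in the libraries labelled U138MG while ISG20 rose, GBP1 carried the core and was not past the adjusted p in KYSE30, and PARP9 and DTX3L are divergent neighbours that share 1 core read from opposite strands.
ISG15 (chr1:1013374-1013409, plus strand): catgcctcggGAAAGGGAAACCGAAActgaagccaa
IFIT1 (chr10:89392497-89392539, plus strand): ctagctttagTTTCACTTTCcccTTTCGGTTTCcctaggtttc
ISG20 (chr15:88638937-88638966, plus strand): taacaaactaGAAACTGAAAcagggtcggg
BST2 (chr19:17405735-17405770, minus strand): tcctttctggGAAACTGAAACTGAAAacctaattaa
GBP1 (chr1:89065316-89065345, minus strand): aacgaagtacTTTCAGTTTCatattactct
PARP9 (chr3:122564322-122564351, minus strand): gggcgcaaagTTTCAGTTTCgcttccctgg
DTX3L (chr3:122564322-122564351, plus strand): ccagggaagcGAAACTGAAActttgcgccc

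**Figure D1:**
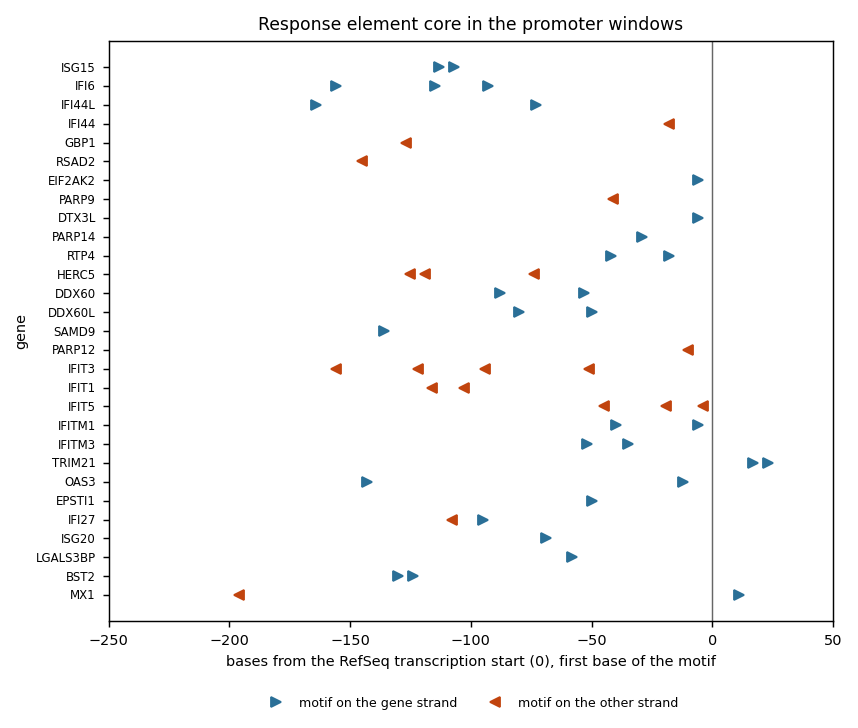
Position of the 51 copies of the response element core in the RefSeq promoter windows of 29 interferon-stimulated genes, as bases from the nearer transcription start (x axis, first base of the copy) for each gene (y axis). Right-pointing triangles are copies on the gene's strand and left-pointing triangles copies on the other strand. Most copies lie before the start, with a median of 73 bases.

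Genes with the core had a median log2 fold change of 1.45 in KYSE30 (28 tested, range 0.08 to 3.86), and those whose windows lacked it had 1.05 (12 tested, range -0.09 to 1.81). The medians in the libraries labelled U138MG were -0.05 (26 tested) and -0.07 (11 tested). The ranges overlapped in KYSE30 and no test was made.

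PTDSS1i was accompanied by higher levels of nearly the whole set in KYSE30. Of the 54 genes, 53 were listed in the KYSE30 table, CMPK2 being the one not analysed there, and 52 passed the filter on low counts. EPSTI1, with 8 reads over the 6 libraries, did not pass. Of the 52, 34 were called higher and 0 lower, against 6.4% of all 16389 genes tested called higher and 7.04% called lower. Without the limit on fold change, 45 were higher and 0 lower (all genes 30.1% and 32%), and MX1, GBP1, UBA7, IFITM2, CMTR1, XAF1 and SAMD9 were not past the adjusted p. All 3 PTDSS1i libraries lay above all 3 DMSO libraries for 47 of the 52 genes and below for 1, CMTR1, against 32.1% and 34.2% of all genes. Leaving out 1 library at a time, the call was lost for IFI44L in 5 of 6 fits, SAMD9L in 4, BST2 and IFITM1 in 3, IFI35 and DTX3L in 2, and PARP12 and RTP4 in 1. The median log2 fold change over the 52 genes was 1.15, and over all genes tested -0.03.

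In the libraries labelled U138MG the same genes went both ways. All 54 were listed and 50 passed the filter, the others being RSAD2, MX2, IFI27 and XAF1. Of the 50, 3 were called higher (IFIT2, OASL and ISG20) and 9 lower (IFIT1, OAS2, IFI44L, UBA7, HERC6, BST2, TRIM22, SAMD9L and EPSTI1), against 8.19% and 11.6% of 17666 genes. Without the fold limit, 17 were higher and 20 lower (all genes 33.9% and 33.6%). The 3 PTDSS1i libraries lay above all DMSO libraries for 17 genes and below for 24 (all genes 35.5% and 35.9%). The shares higher, 6% called and 34% without overlap, were at or below those of all genes, and the shares lower, 18% and 48%, were above them. The median log2 fold change was -0.07, and over all genes tested -0.03. With upper-quartile scaling the split was 12 higher and 30 lower, against 4545 higher and 7691 lower of the 17666 genes. Of the genes past the adjusted p, the higher ones were then 28.6% in the set and 37.1% over all genes (45.9% and 50.2% with TMM). The median of all genes moved to -0.17. Under that scaling OAS3, USP18, DDX60L and SP100 turned from slightly above to slightly below 0, and under library size alone the same genes did so. In KYSE30, UBA7 turned below 0 under both scalings and GBP1 under library size alone.

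**Figure D2:**
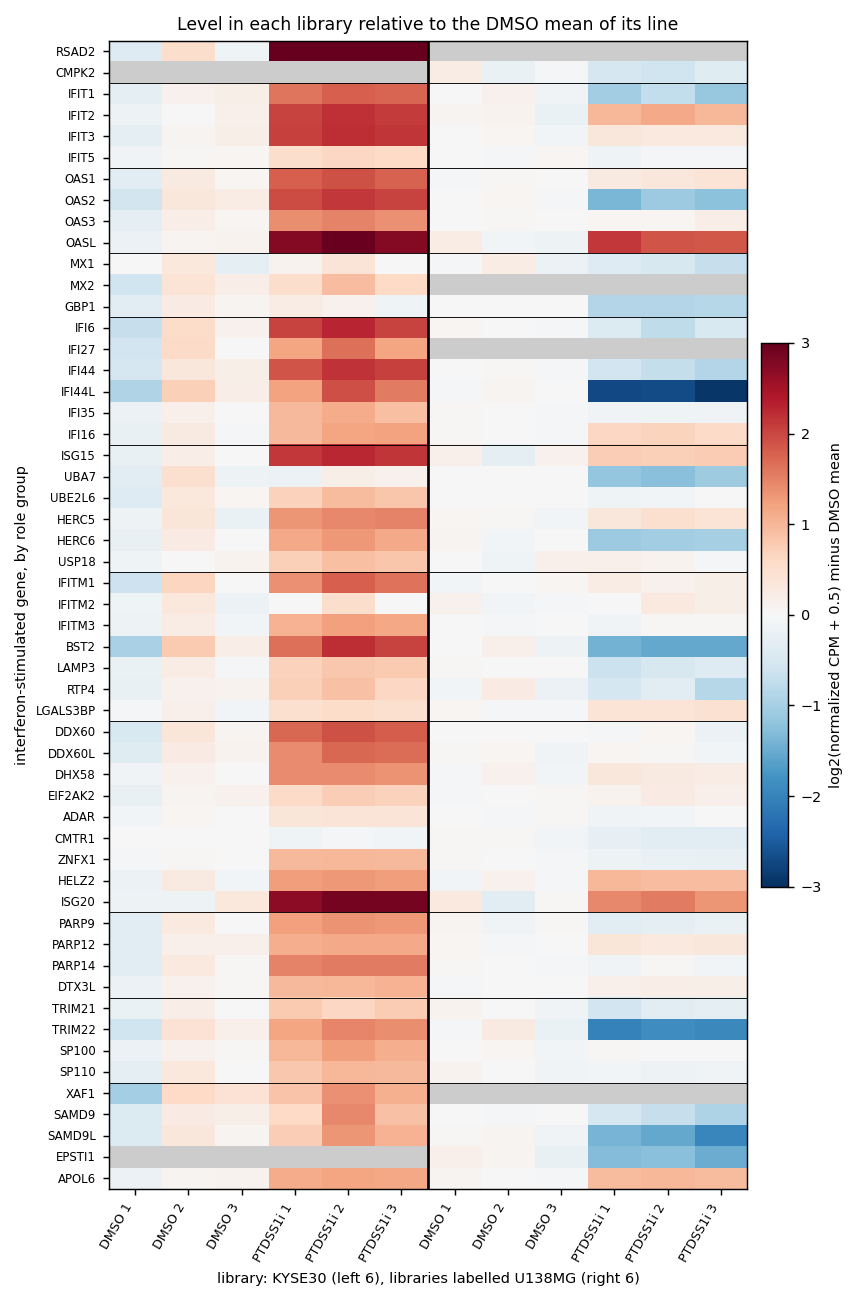
Level of the 54 interferon-stimulated genes in each of the 12 libraries, as log2(normalized CPM + 0.5) minus the mean of the 3 DMSO libraries of the same line, with red above and blue below that mean and colour capped at 3 in either direction. Genes (rows) are ordered by role, libraries are columns, and grey cells are genes that were not listed or did not pass the filter. In KYSE30 all 3 PTDSS1i columns lie above all DMSO columns for 47 of 52 genes and DMSO replicate 1 is the lowest DMSO column for 46 of the 52, while the U138MG PTDSS1i columns hold red and blue genes.

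The difference between the lines, fitted as an interaction over the 12 libraries and the 30358 genes in both tables, was past the adjusted p of 0.05 for 48 of 53 genes tested, each with the KYSE30 effect above, and for 0 with it below. Over all 18405 genes tested these shares were 24.4% and 25.5%. IFI27, IFITM2, LGALS3BP, XAF1 and EPSTI1 were not past it. Leaving out 1 library at a time, the difference was no longer past it for HELZ2 in 10 of 12 fits, MX1 in 3 and APOL6 in 2. All 48 genes tested in both lines had the higher fold change in KYSE30. For 20 genes every PTDSS1i library was above DMSO in KYSE30 and below DMSO in the libraries labelled U138MG, and 18 were above in both lines, against 6.07% and 15.6% of the 18405 genes. The 20 include MX2 and XAF1, and the 18 include RSAD2, all with too few reads to be tested within the libraries labelled U138MG.

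**Figure D3:**
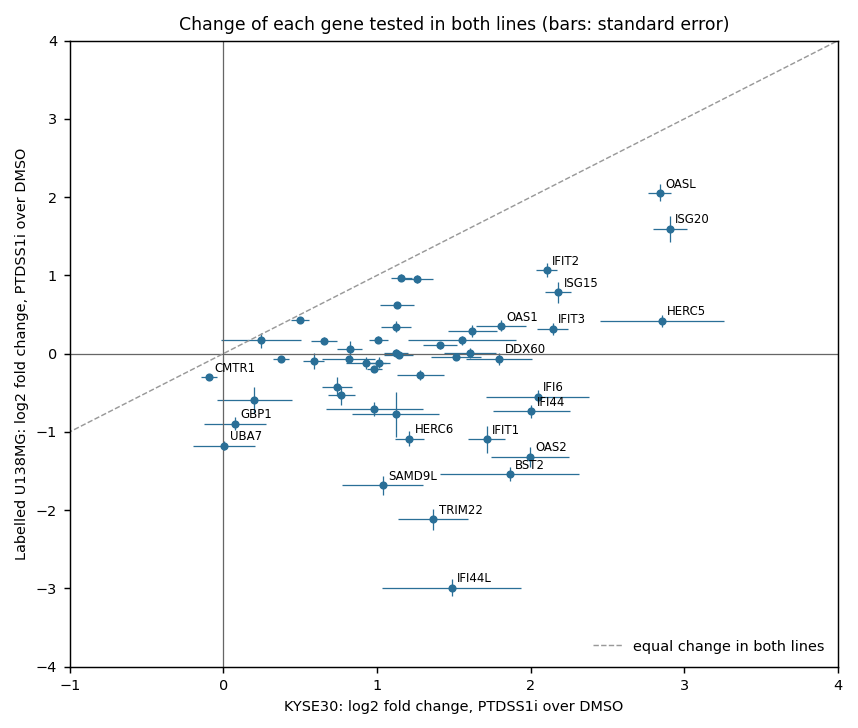
Log2 fold change of PTDSS1i over DMSO in KYSE30 (x axis) and in the libraries labelled U138MG (y axis) for the 48 genes tested in both, each point a gene with bars of 1 standard error (3 libraries against 3). Every point lies below the dashed line of equal change, with OASL and ISG20 high in both lines and IFI44L, TRIM22, SAMD9L and BST2 raised in KYSE30 and lowered in the other line.

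Among the nucleotide enzymes, RSAD2 makes an altered nucleotide that ends viral RNA chains, and it had the largest fold change of the set in KYSE30. It had 0.391, 1.16 and 0.553 normalized CPM under DMSO and 9.70, 11.1 and 9.66 under PTDSS1i (log2 fold change 3.86 ± 0.21 SE), with at most 23 reads in a DMSO library. The PTDSS1i libraries were close to each other and far above DMSO. The libraries labelled U138MG had 0.250, 0.214 and 0.0887 under DMSO and 0.395, 0.783 and 0.439 under PTDSS1i, at most 17 reads, and the gene was not tested there. CMPK2, a mitochondrial nucleotide kinase that lies beside RSAD2, was measured in the libraries labelled U138MG alone, at 1.20, 0.769 and 0.932 under DMSO and 0.527, 0.460 and 0.639 under PTDSS1i (log2 fold change -0.81 ± 0.37). Its PTDSS1i libraries were all below DMSO on at most 24 reads.

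The IFIT proteins bind viral RNA that lacks the host cap marks and stop its translation. Their 4 genes lie together on chromosome 10, from IFIT2 at 89283694 to the end of IFIT5 at 89421001 (GENCODE release 29 on GRCh38), and 3 of the 4 were called higher in KYSE30. IFIT1 had 40.6, 54.6 and 56.2 normalized CPM under DMSO and 154, 175 and 168 under PTDSS1i in KYSE30 (log2 fold change 1.71 ± 0.12). IFIT1 went the other way in the libraries labelled U138MG, from 5.74, 6.36 and 5.41 to 2.59, 3.27 and 2.36 (-1.10 ± 0.17). IFIT1 there was -0.99 without PTDSS1i replicate 3, short of a call. IFIT1 therefore had groups that did not overlap in either line, in opposite directions. IFIT2 had 52.1, 57.9 and 64.7 under DMSO and 238, 265 and 250 under PTDSS1i in KYSE30 (2.11 ± 0.07). It also rose in the libraries labelled U138MG, from 12.9, 13.2 and 10.5 to 24.8, 27.2 and 24.9 (1.07 ± 0.09, and 0.98 without DMSO replicate 3, short of a call). IFIT1 and IFIT2 thus differed in direction only in that line. IFIT3 had 32.7, 41.4 and 44.7 under DMSO and 165, 185 and 176 under PTDSS1i in KYSE30 (2.14 ± 0.10). The other line had it at 17.5, 18.2 and 16.3, then 22.0, 21.5 and 21.3 (0.32 ± 0.08), a small change without overlap. IFIT5 had a log2 fold change of 0.59 ± 0.07 in KYSE30 and -0.09 ± 0.10 in the other line.

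The OAS enzymes make oligoadenylates from double-stranded RNA that switch on RNase L, and OASL is a family member without that activity. All 4 were called higher in KYSE30, with fold changes from 1.41 to 2.84 on the log2 scale. OAS1 had 82.6, 125 and 108 normalized CPM under DMSO and 362, 390 and 356 under PTDSS1i in KYSE30 (1.81 ± 0.16), and OAS3 had 89.0, 123 and 112, then 284, 302 and 276 (1.41 ± 0.11). OAS1 had levels of 20.5, 21.7 and 20.8, then 25.5, 26.7 and 28.2 in the libraries labelled U138MG (0.35 ± 0.07). OAS3 there had 95.0, 97.8 and 95.4, then 99.3, 101 and 110 (0.10 ± 0.04), which turned to -0.04 with upper-quartile scaling or library size alone. OAS1 and OAS3 thus moved far less in that line than in KYSE30. OAS2 lies beside them on chromosome 12 and had 26.0, 48.6 and 45.2 under DMSO and 150, 170 and 159 under PTDSS1i in KYSE30 (2.00 ± 0.25). OAS2 fell in the libraries labelled U138MG from 10.3, 10.7 and 9.94 to 3.69, 4.60 and 4.11 (-1.32 ± 0.13), the only OAS gene to fall. OASL had 26.8, 32.3 and 32.7 under DMSO and 209, 240 and 210 under PTDSS1i in KYSE30 (2.84 ± 0.08). It also had the largest rise of the set in the libraries labelled U138MG, from 6.44, 5.13 and 4.88 to 25.4, 21.4 and 21.2 (2.05 ± 0.11).

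**Figure D4:**
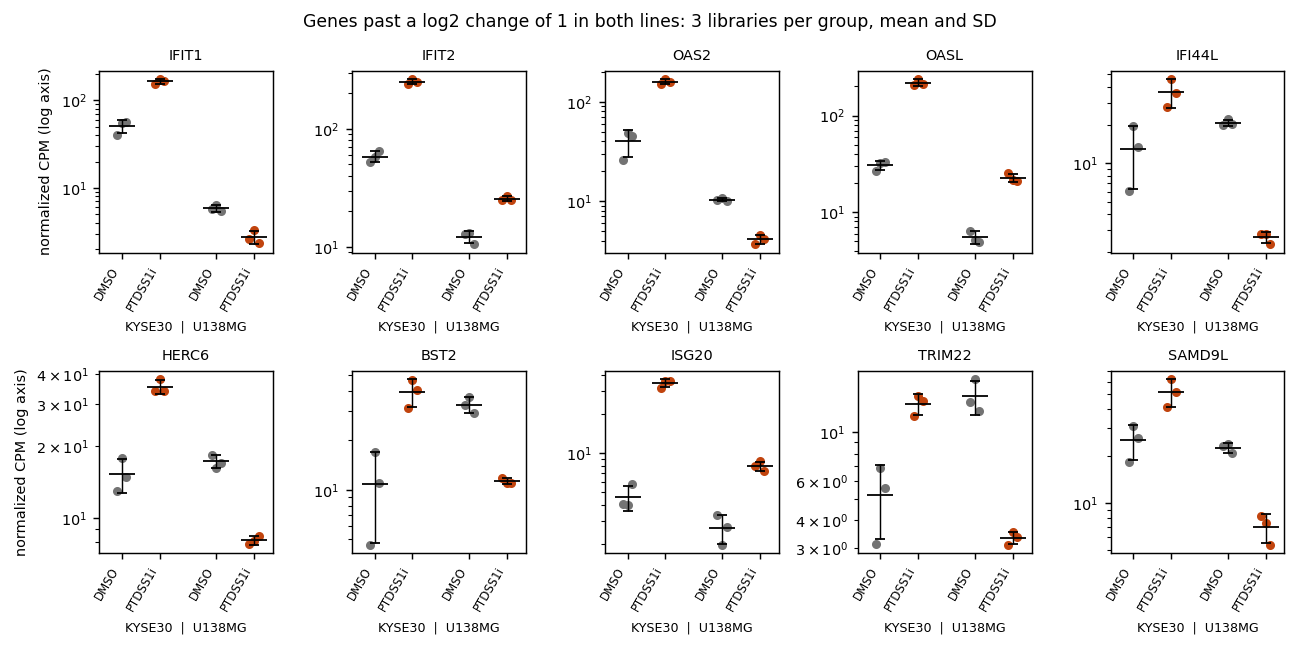
Normalized CPM (log axis) of the 10 interferon-stimulated genes past a log2 fold change of 1 in both lines, in 3 DMSO libraries (grey) and 3 PTDSS1i libraries (orange) of KYSE30 and of the libraries labelled U138MG, with the mean and SD of each group. IFIT2, OASL and ISG20 rise in both lines, while IFIT1, OAS2, IFI44L, HERC6, BST2, TRIM22 and SAMD9L rise in KYSE30 and fall in the other line.

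The MX proteins and the guanylate-binding proteins are GTPases, and they were the role group that changed least in KYSE30, with 0 of 3 called. MX1, a classical marker of interferon response, was low and had 1.47, 1.97 and 1.11 normalized CPM under DMSO and 1.63, 2.09 and 1.49 under PTDSS1i in KYSE30 (0.20 ± 0.24). GBP1 had 1.71, 2.72 and 2.38, then 2.70, 2.50 and 2.02 (0.08 ± 0.20). The groups of both genes overlapped, and these genes had at most 58 reads in a library. MX2 had a log2 fold change of 0.69 ± 0.24 without overlap. MX1 fell in the libraries labelled U138MG from 5.14, 6.28 and 4.61 to 3.90, 3.68 and 3.07 (-0.59 ± 0.17). GBP1, at 21.0, 21.4 and 21.3 under DMSO there, was 11.4, 11.4 and 11.5 under PTDSS1i (-0.90 ± 0.08).

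All 6 genes named IFI were called higher in KYSE30, of which IFI44L and IFI35 lost the call when single libraries were left out. IFI6, a mitochondrial protein that opposes cell death, had 20.7, 49.6 and 37.2 normalized CPM under DMSO and 138.02, 166 and 140 under PTDSS1i in KYSE30 (2.05 ± 0.33). It had 25.3, 24.0 and 23.5, then 18.1, 14.04 and 17.4 in the libraries labelled U138MG (-0.55 ± 0.08). IFI44 had 31.9, 58.2 and 51.6 under DMSO and 169, 207 and 192 under PTDSS1i in KYSE30 (2.00 ± 0.25). In the other line it had 24.6, 25.6 and 24.3, then 16.5, 14.96 and 13.3 (-0.74 ± 0.08), so both genes moved in opposite directions without overlap. IFI44L, its neighbour on chromosome 1, had 6.01, 19.5 and 13.5 under DMSO and 27.9, 46.0 and 35.4 under PTDSS1i in KYSE30 (1.49 ± 0.45). IFI44L kept its call only without DMSO replicate 2 (1.87), and the other fits gave 1.16 to 1.65. It had the deepest fall of the set in the libraries labelled U138MG, from 19.9, 22.1 and 20.5 to 2.76, 2.81 and 2.32 (-2.99 ± 0.11). The fitted difference between lines for IFI44L, 4.52 ± 0.55 on the log2 scale, was the widest of the 53 genes. IFI27 had 1.86, 4.74 and 3.06, then 7.55, 10.7 and 7.51 in KYSE30 (1.41 ± 0.30). IFI27 had at most 10 reads in the libraries labelled U138MG, at 0.449, 0.256 and 0.133 under DMSO and 0.439, 0.230 and 0.240 under PTDSS1i. IFI35 had 24.3, 30.5 and 27.6, then 54.4, 59.9 and 51.7 in KYSE30 (1.01 ± 0.08), and was at 0.94 without DMSO replicate 1 and 0.95 without PTDSS1i replicate 2, both short of a call. It moved little in the other line, from 27.6, 26.5 and 26.2 to 24.9, 24.4 and 24.7 (-0.12 ± 0.07). IFI16, a nuclear DNA sensor, rose in both lines. It had 15.5, 22.2 and 17.5, then 36.4, 42.0 and 42.5 in KYSE30 (1.13 ± 0.11). The libraries labelled U138MG had it at 156, 155 and 147, then 236, 244 and 228 (0.63 ± 0.04).

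ISG15 is a ubiquitin-like protein that is joined to other proteins by the enzymes UBA7, UBE2L6 and HERC5 in turn and removed by USP18. In KYSE30 the modifier had a larger fold change than the enzymes that activate and carry it. ISG15 had 54.3, 71.9 and 63.9 normalized CPM under DMSO and 277, 305 and 279 under PTDSS1i in KYSE30 (2.18 ± 0.09). It had 5.99, 4.31 and 5.86, then 9.30, 9.02 and 9.38 in the libraries labelled U138MG (0.78 ± 0.13). UBA7, the activating enzyme, had 4.01, 7.41 and 4.59, then 4.47, 5.86 and 5.66 in KYSE30 (0.01 ± 0.20, overlapping, and -0.10 with library size alone). UBA7 fell in the libraries labelled U138MG from 53.8, 54.5 and 53.96 to 23.7, 22.4 and 25.4 (-1.18 ± 0.06). UBA7 thus overlapped between groups in KYSE30 and not in the other line. UBE2L6, the conjugating enzyme, had 13.7, 22.5 and 18.8, then 29.4, 34.9 and 32.5 in KYSE30 (0.82 ± 0.17). In the other line it had 113, 112 and 113, then 104, 106 and 112 (-0.07 ± 0.04). HERC5, the main human ISG15 ligase, was near the limit of detection in KYSE30. It had 0.0977, 0.353 and 0.0851 under DMSO, at most 7 reads, and 1.17, 1.33 and 1.36 under PTDSS1i (2.86 ± 0.40, and 3.73 without DMSO replicate 2). The other line had it at 19.4, 19.1 and 17.7, then 23.6, 26.4 and 25.1 (0.42 ± 0.07). HERC6, the adjacent gene on chromosome 4, had 13.0, 17.9 and 14.9, then 33.9, 38.0 and 34.0 in KYSE30 (1.21 ± 0.09). HERC6 fell in the libraries labelled U138MG from 18.4, 16.3 and 17.1 to 7.81, 8.06 and 8.46 (-1.09 ± 0.09). HERC5 and HERC6 therefore went the same way in KYSE30 and opposite ways in the other line. USP18 had a log2 fold change of 0.82 ± 0.08 in KYSE30 and 0.06 ± 0.10 in the other line.

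Among the membrane and secreted proteins, 4 of 7 were called higher in KYSE30. BST2, which tethers budding viruses to the cell surface, had 4.64, 16.8 and 11.0 normalized CPM under DMSO and 31.4, 46.4 and 40.4 under PTDSS1i in KYSE30 (1.86 ± 0.45). BST2 fell in the libraries labelled U138MG from 32.6, 36.6 and 29.2 to 11.8, 11.0 and 11.0 (-1.54 ± 0.08). Its DMSO libraries in KYSE30 were spread widely, with replicate 1 the lowest, and still lay below all PTDSS1i libraries. The call of BST2 was lost without DMSO replicate 3 (1.88), PTDSS1i replicate 2 (1.74) or PTDSS1i replicate 3 (1.85), and that of IFITM1 without the same libraries (1.45 without PTDSS1i replicate 2, the lowest of these fits). IFITM1 and IFITM3 block fusion of viral and cell membranes. IFITM1 had 7.38, 18.7 and 11.6, then 31.0, 41.9 and 37.2 in KYSE30 (1.55 ± 0.35), and 38.8, 41.7 and 43.0, then 47.8, 45.1 and 46.3 in the other line (0.17 ± 0.05). IFITM3 had 111, 143 and 115, then 250, 288 and 275 in KYSE30 (1.14 ± 0.10), and 73.3, 70.0 and 73.1, then 66.7, 73.8 and 74.0 in the other line (-0.01 ± 0.05). The IFITM genes are similar in sequence and IFITM1 shares 351 bases of annotated exon with IFITM2, so their separate counts are uncertain. RTP4, a chaperone of receptors, was low and had 0.440, 0.706 and 0.680, then 1.31, 1.53 and 1.20 in KYSE30 (1.12 ± 0.28, and 0.95 without DMSO replicate 1, short of a call). It had 1.75, 2.31 and 1.60, then 1.14, 1.38 and 0.799 in the libraries labelled U138MG (-0.78 ± 0.29). LGALS3BP, a secreted glycoprotein, was one of 5 genes whose change did not differ between lines past the adjusted p. It had 357, 414 and 356, then 524, 548 and 521 in KYSE30 (0.50 ± 0.06). The libraries labelled U138MG had it at 230, 215 and 216, then 294, 292 and 301 (0.43 ± 0.04). The fitted difference was 0.11 ± 0.07. LAMP3 had log2 fold changes of 0.77 ± 0.09 in KYSE30 and -0.53 ± 0.12 in the other line, and IFITM2 0.25 ± 0.26 and 0.17 ± 0.10.

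The enzymes that act on RNA held both strong and unmoved genes, with 5 of 9 called higher in KYSE30. ISG20, an exonuclease of single-stranded RNA, had 4.01, 3.98 and 5.74 normalized CPM under DMSO and 31.9, 36.0 and 36.2 under PTDSS1i in KYSE30 (2.91 ± 0.11). It rose in the libraries labelled U138MG as well, from 3.30, 1.97 and 2.66 to 7.90, 8.61 and 7.31 (1.59 ± 0.17). The helicases DDX60 and DDX60L, close paralogs on chromosome 4, were both called higher in KYSE30. DDX60 had 22.1, 38.8 and 32.3, then 100, 115 and 108 (1.80 ± 0.21), and DDX60L had 15.2, 23.3 and 21.3, then 53.0, 65.4 and 63.6 (1.60 ± 0.17). Both overlapped between groups in the libraries labelled U138MG. DDX60 there had 19.1, 19.7 and 19.3, then 18.5, 20.1 and 17.1 (-0.06 ± 0.08), and DDX60L had 32.9, 33.4 and 29.6, then 33.4, 32.7 and 30.3 (0.01 ± 0.06). DHX58, which regulates the sensors of viral RNA, had 1.61, 1.97 and 1.74, then 5.55, 5.61 and 5.24 in KYSE30 (1.62 ± 0.16). It had 19.02, 21.4 and 18.5, then 25.1, 23.7 and 23.0 in the other line (0.28 ± 0.08). HELZ2, a helicase and coactivator, was raised in both lines, with a fitted difference of 0.35 ± 0.13 that ranged from 0.27 to 0.49 when single libraries were left out and was past the adjusted p in 2 of those 12 fits. It had 109, 148 and 117, then 297, 306 and 294 in KYSE30 (1.26 ± 0.10), and 44.9, 51.5 and 46.0, then 95.3, 90.9 and 90.7 in the other line (0.96 ± 0.05). EIF2AK2, the kinase PKR that halts translation, had 103, 127 and 132, then 178, 199 and 192 in KYSE30 (0.66 ± 0.08). The libraries labelled U138MG had it at 117, 118 and 124, then 128, 142 and 133 (0.17 ± 0.04). ADAR, which edits adenosine in double-stranded RNA, was the most abundant gene of the group. It had 414, 456 and 436, then 559, 570 and 566 in KYSE30 (0.38 ± 0.05) and 500, 493 and 514, then 469, 476 and 495 in the other line (-0.07 ± 0.03, overlapping). ZNFX1 had 0.98 ± 0.05 in KYSE30 and -0.20 ± 0.04 in the other line, and CMTR1, a cap methyltransferase, -0.09 ± 0.05 and -0.30 ± 0.04, all as log2 fold changes.

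All 4 genes of the ADP-ribosylation group were called higher in KYSE30. PARP9 and the ubiquitin ligase DTX3L act as a pair and are divergent neighbours on chromosome 3. PARP9 had 46.2, 70.4 and 58.3 normalized CPM under DMSO and 135, 147 and 143 under PTDSS1i in KYSE30 (1.28 ± 0.15), and DTX3L had 71.5, 88.0 and 82.8, then 158, 162 and 167 (1.01 ± 0.06, and 0.93 without DMSO replicate 1 and 0.99 without PTDSS1i replicate 3, short of a call). PARP9 had 31.5, 27.4 and 30.3, then 23.9, 24.2 and 25.6 in the libraries labelled U138MG (-0.27 ± 0.07). DTX3L there had 72.4, 74.9 and 74.3, then 82.1, 84.8 and 83.9 (0.18 ± 0.04). The pair with the shared core, printed above, thus moved together in KYSE30 and, under TMM scaling, apart in the other line. PARP12 had 17.4, 24.1 and 24.2, then 46.8, 48.3 and 48.0 in KYSE30 (1.12 ± 0.10, and 0.99 without DMSO replicate 1), and 22.9, 21.2 and 22.4, then 28.6, 27.3 and 28.4 in the other line (0.34 ± 0.07). PARP14 had 51.0, 79.2 and 65.4, then 180, 189 and 189 in KYSE30 (1.51 ± 0.16). Its groups overlapped in the other line, at 122, 118 and 117, then 111, 122 and 113 (-0.04 ± 0.04).

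Of the TRIM and nuclear body proteins, TRIM22, a ubiquitin ligase that restricts viruses, had 3.13, 6.86 and 5.57 normalized CPM under DMSO and 11.8, 14.6 and 13.7 under PTDSS1i in KYSE30 (1.37 ± 0.23). TRIM22 fell in the libraries labelled U138MG from 13.6, 17.3 and 12.5 to 3.12, 3.54 and 3.35 (-2.12 ± 0.13). Its difference between lines, 3.52 ± 0.29, came next after that of IFI44L. SP100, a component of nuclear bodies, had 46.9, 57.9 and 54.7, then 107, 128 and 114 in KYSE30 (1.13 ± 0.08). It had 56.1, 57.6 and 52.1, then 56.3, 54.5 and 55.9 in the other line (0.01 ± 0.05, overlapping). SP110 had 13.6, 21.1 and 16.8, then 30.1, 34.4 and 33.4 in KYSE30 (0.93 ± 0.13) and 22.1, 20.9 and 19.1, then 19.6, 18.6 and 19.1 in the other line (-0.11 ± 0.08). SP110 shares 1432 exon bases with genes on the opposite strand, and the kit does not mark strand. TRIM21 had log2 fold changes of 0.74 ± 0.10 and -0.42 ± 0.12.

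Of the growth and cell death genes, APOL6 was raised in both lines. It had 23.5, 28.2 and 29 normalized CPM under DMSO and 58.9, 61.4 and 60.1 under PTDSS1i in KYSE30 (1.16 ± 0.07), and 72.7, 68.4 and 66.03, then 134, 138.1 and 134 in the libraries labelled U138MG (0.97 ± 0.04). SAMD9 and SAMD9L, neighbouring genes that hold back cell growth, had groups that did not overlap, in opposite directions in the 2 lines. SAMD9 had 57.3, 91.2 and 86.5, then 116, 209 and 140 in KYSE30 (0.98 ± 0.32), and 39.4, 38.3 and 39.6, then 27.6, 24.2 and 20.2 in the other line (-0.71 ± 0.09). SAMD9L had 18.2, 31.0 and 26.2, then 41.3, 62.1 and 51.5 in KYSE30 (1.04 ± 0.26), and 23.0, 23.7 and 20.7, then 8.25, 7.41 and 5.39 in the other line (-1.69 ± 0.12). Replicate 2 of PTDSS1i was the highest KYSE30 library for both. SAMD9L kept its call there only without DMSO replicate 2 (1.20) or PTDSS1i replicate 1 (1.18), and the other fits gave 0.86 to 1.07. XAF1, which favours cell death, had 0.831, 3.58 and 3.19, then 4.43, 6.52 and 5.16 in KYSE30 (1.07 ± 0.47). It had at most 11 reads in the libraries labelled U138MG, at 0.549, 0.299 and 0.266 under DMSO and 0, 0 and 0.200 under PTDSS1i, and it shares 2535 exon bases with an opposite-strand gene. EPSTI1 had at most 3 reads in a KYSE30 library, at 0.0977, 0 and 0.128 under DMSO and 0.0466, 0.0510 and 0.0413 under PTDSS1i. It had 2.90, 2.73 and 2.13, then 0.746, 0.783 and 0.599 in the libraries labelled U138MG (-1.86 ± 0.28).

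The DMSO libraries of KYSE30 did not have equal levels of these genes. Replicate 1 was the lowest of the 3 for 46 of the 52 genes (88.5%) and for 35.8% of all genes tested, and replicate 2 was the highest for 42 of the 52 and for 34.6% of all genes. The level in replicate 1 was a median of 0.745 of the mean of replicates 2 and 3, against 0.997 over all genes. The ratio was lowest for XAF1 (0.245), BST2 (0.333), IFI44L (0.364) and HERC5 (0.446). Strongly raised genes, HERC5 among them, had both low and higher ratios. RSAD2, with the largest fold change, stood at 0.457, and IFI6, OAS2 and IFI44 at 0.477, 0.553 and 0.581. IFIT3, OASL, ISG20, IFIT2 and ISG15 stood at 0.7595, 0.824, 0.824, 0.850 and 0.7995. Among the PTDSS1i libraries of KYSE30, replicate 1 was the lowest for 39 genes and replicate 2 the highest for 46. Over all genes tested these shares were 33.5% and 29.4%. The median ratio of PTDSS1i replicate 1 to the others was 0.912 over the 52 genes. Among the libraries labelled U138MG, DMSO replicate 1 was the lowest for 10 of 50 genes, replicate 2 for 15 and replicate 3 for 25. Over all genes tested there the shares were 31.9%, 33.4% and 34.7%. The summed normalized CPM of all genes of the set listed for the line was 2259, 2936 and 2653 in KYSE30 DMSO and 5666, 6321 and 5905 in PTDSS1i. The gap between groups thus exceeded the gap between DMSO libraries. The sums in the libraries labelled U138MG ranged from 2450 to 2504 under DMSO and from 2592 to 2629 under PTDSS1i. Since the rule of choice names the low DMSO library, these values are a description. Without that library, 28 genes were called higher and 0 lower, the median log2 fold change was 1.08, and the fold change of BST2 was 1.52 in place of 1.86, of IFI44L 1.16 in place of 1.49, and of OASL 2.76 in place of 2.84.

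**Figure D5:**
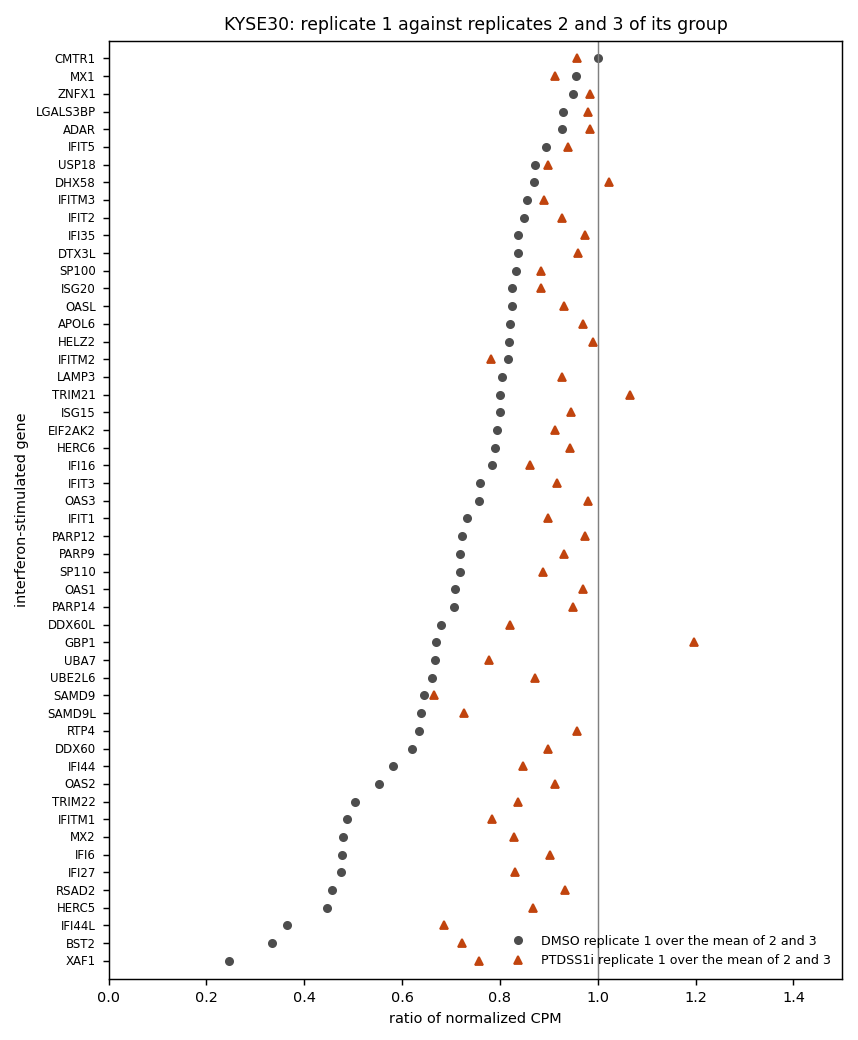
Ratio of normalized CPM in replicate 1 to the mean of replicates 2 and 3 of the same KYSE30 group, for the 52 genes tested (y axis, ordered by the DMSO ratio), with DMSO as circles and PTDSS1i as triangles and a line at a ratio of 1. DMSO ratios run from 0.245 for XAF1 to about 1 for CMTR1, and most PTDSS1i ratios lie closer to 1.

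Genes that make, sense and transmit the interferon signal were examined as a separate list of 57. In KYSE30, 36 of them passed the filter, and 5 were called higher and 0 lower (all genes 6.4% and 7.04%), and the adjusted p alone gave 23 higher and 3 lower (all genes 30.1% and 32%). In the libraries labelled U138MG, 35 passed, 2 were called higher and 2 lower (all genes 8.19% and 11.6%), and 18 and 10 passed the adjusted p alone (all genes 33.9% and 33.6%). The counts called there were no higher than those shares. The median log2 fold changes were 0.33 and 0.20. SOCS3, IFIH1, TLR3, IFNL3, RIGI, CGAS and IFNE are named below because of their values in these contrasts. Their adjusted p is a description and not a separate test. The other genes named below were picked by role. The list was made with earlier results of these data known, so their adjusted p is a description too.

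Of the interferon ligands, the type III interferons were detected at low level in KYSE30. IFNL1 had 0.244, 0.605 and 0.213 normalized CPM under DMSO and 1.68, 1.22 and 1.28 under PTDSS1i (log2 fold change 1.99 ± 0.35, edgeR adjusted p = 4.2e-05, and 2.58 without DMSO replicate 2) on 113 reads in all. IFNL3, named after its values were seen, as were RIGI, CGAS and IFNE, had 1.59 ± 0.39 (adjusted p = 0.0014) on 66 reads, and its sequence is close to that of IFNL2. IFNL1 rose in KYSE30 without overlap. IFNL1 in the libraries labelled U138MG had 0 reads in each DMSO library and 0.132, 0.138 and 0.479 normalized CPM under PTDSS1i, 18 reads in all, too few for the test. IFNB1 had 20 reads over the 6 KYSE30 libraries, at 0.0977, 0.0504 and 0.170 normalized CPM under DMSO and 0.0466, 0.561 and 0.0413 under PTDSS1i. It had 5 reads in the libraries labelled U138MG, at 0, 0 and 0.0887, then 0, 0.0460 and 0.0799, and the IFNA genes had at most 1 read in any table where they were listed. IFNE was called lower in the libraries labelled U138MG (-1.03 ± 0.40, adjusted p = 0.024, 92 reads).

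The receptors changed by less than 1 on the log2 scale in both lines. IFNAR1, a chain of the type I receptor, had 54.6, 57.7 and 58.5 normalized CPM, then 61.0, 61.5 and 61.3 in KYSE30 (0.11 ± 0.06, adjusted p = 0.11). It was 53.0, 51.7 and 53.96, then 44.7, 44.2 and 47.4 in the libraries labelled U138MG (-0.22 ± 0.05, adjusted p = 3.9e-04). IFNAR2, the other chain, fell in KYSE30 from 6.99, 6.86 and 7.66 to 4.94, 5.71 and 4.75 (-0.49 ± 0.12, adjusted p = 0.0018). It rose in the libraries labelled U138MG from 27.4, 26.7 and 26.2 to 36.3, 37.0 and 37.7 (0.47 ± 0.06, adjusted p = 8.4e-08).

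Among the transcription factors, STAT2 rose from 53.9, 74.7 and 64.7 normalized CPM to 110, 116 and 112 in KYSE30 (0.81 ± 0.10, adjusted p = 5.0e-05) and from 55.3, 60.1 and 54.5 to 62.5, 61.1 and 64.4 in the other line (0.15 ± 0.05, adjusted p = 0.0098). IRF9, the DNA-binding member of the complex, was low in KYSE30, at 3.03, 4.08 and 3.40, then 5.13, 4.38 and 4.33 (0.40 ± 0.15, adjusted p = 0.029). It was 13.3, 15.9 and 15.1, then 23.9, 19.5 and 17.6 in the libraries labelled U138MG (0.46 ± 0.10, adjusted p = 7.5e-04). Under TMM scaling STAT2 and IRF9 thus rose in both lines. The rise of STAT2 in the libraries labelled U138MG was about as large as the effect of scaling. With upper-quartile scaling the median of all genes there moved from -0.03 to -0.17. IRF1, induced early by interferons, rose in KYSE30 from 38.8, 45.8 and 38.2 to 76.4, 73.3 and 76.4 (0.88 ± 0.07, adjusted p = 1.5e-10). IRF1 fell in the libraries labelled U138MG from 72.7, 74.2 and 67.7 to 60.7, 63.6 and 58.5 (-0.23 ± 0.05, adjusted p = 1.1e-04). IRF7, which amplifies interferon production, had 3 reads in KYSE30 in all, and 1.40, 2.18 and 1.51, then 2.28, 2.99 and 2.87 normalized CPM in the other line (0.67 ± 0.24, adjusted p = 0.014).

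The inhibitors of the pathway split. SOCS1, which blocks the JAK kinases, rose in both lines, from 4.59, 4.44 and 3.40 to 6.48, 5.71 and 5.78 in KYSE30 (0.54 ± 0.14, adjusted p = 0.0024) and from 4.29, 2.78 and 3.77 to 5.97, 5.20 and 5.23 in the other line (0.60 ± 0.17, adjusted p = 0.0031). The fitted difference between lines for SOCS1 was -0.03 ± 0.22 (adjusted p = 0.97). SOCS3, which acts mainly on the receptors of the interleukin-6 family, had 17.6, 19.3 and 16.8, then 16.8, 16.4 and 16.6 in KYSE30 (-0.11 ± 0.08, adjusted p = 0.26). It rose in the libraries labelled U138MG from 3.30, 3.20 and 2.66 to 38.2, 35.2 and 32.7 (3.53 ± 0.10, adjusted p = 4.5e-22). The change of SOCS3 was the largest of the whole list in that line.

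Among the sensors, IFIH1 (MDA5), a sensor of long double-stranded RNA, rose in KYSE30 from 21.1, 29.8 and 29.9 to 92.5, 98.7 and 95.6 (1.83 ± 0.11, adjusted p = 6.3e-07). The libraries labelled U138MG had it at 22.2, 20.7 and 23.8, then 30.2, 28.0 and 28.2 (0.37 ± 0.07, adjusted p = 3.8e-05). RIGI, the sensor of uncapped RNA ends, was low in KYSE30 and rose by 1.31 ± 0.24 (adjusted p = 6.8e-05). TLR3, the endosomal sensor of double-stranded RNA, had 10.1, 13.4 and 13.6, then 9.46, 10.4 and 10.5 in KYSE30 (-0.29 ± 0.11, adjusted p = 0.029). TLR3 fell in the libraries labelled U138MG from 29.2, 28.2 and 25.6 to 6.05, 7.32 and 6.31 (-2.08 ± 0.09, adjusted p = 1.1e-17). CGAS, the sensor of cytosolic DNA, rose there by 1.63 ± 0.07 (adjusted p = 4.7e-18).

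A further 85 interferon-inducible genes outside the set gave a smaller shift in KYSE30. Of the 72 that passed the filter there, 14 were called higher and 0 lower (all genes 6.4% and 7.04%), the adjusted p alone gave 52 higher and 6 lower (all genes 30.1% and 32%), and the median log2 fold change was 0.55. DMSO replicate 1 was the lowest DMSO library for 50 of the 72. In the libraries labelled U138MG, 79 passed, 4 (5.06%) were called higher and 11 (13.9%) lower, 34 (43%) and 28 (35.4%) passed the adjusted p alone, and the median was 0.03. All genes of that line gave 8.19%, 11.6%, 33.9% and 33.6%. Genes of this list are named from those at a mean of at least 1 normalized CPM, by the 3 largest called changes per direction over this list and the signal list together. They were, for rises in KYSE30, TMEM140, from 0.440, 1.11 and 0.680 to 4.85, 4.59 and 3.88 normalized CPM (2.58 ± 0.24, adjusted p = 4.3e-09), and TDRD7, from 14.7, 19.5 and 18.4 to 61.9, 61.6 and 62.3 (1.82 ± 0.08, adjusted p = 2.7e-14). For rises in the libraries labelled U138MG they were WARS1, a tRNA synthetase, from 85.3, 77.7 and 87.5 to 333, 338 and 345 (2.02 ± 0.04, adjusted p = 9.1e-26), and NLRC5, the activator of MHC class I genes, from 13.1, 16.5 and 14.8 to 49.6, 50.6 and 53.7 (1.79 ± 0.07, adjusted p = 8.2e-19). STAT4 and HSH2D, named after their values were seen, were the other two called higher. TRANK1 fell there from 22.4, 21.6 and 19.5 to 4.21, 4.60 and 3.75 (-2.34 ± 0.11, adjusted p = 1.8e-17). IDO1, which degrades tryptophan, fell from 5.34, 4.53 and 4.22 to 0.658, 1.29 and 0.839 (-2.34 ± 0.24, adjusted p = 1.1e-09). The adjusted p of each of these genes comes from the contrast that named it and is a description.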

How the data were processed

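RNA was measured in 12 libraries of 2 cell lines, 3 per line and treatment, grouped by their labels. The authors trimmed reads with Trimmomatic, aligned them to hg38 with STAR and counted them per gene with featureCounts, per the labels. Versions, annotation and strand setting are not given in the sources used here. The deposited values are raw counts in 1 table per line (30984 and 78691 genes), so levels were normalized within a line.

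Tables were joined by gene identifier without version. Counts were tested with edgeR 4.0.16 (R 4.3.3, TMM, genes of at least 10 counts by filterByExpr, robust quasi-likelihood, Benjamini-Hochberg adjustment over all genes), within each line and, for the 30358 shared genes, as a line by treatment interaction, a method checked on simulated data. Counting error limits genes near 3 reads (0.160 CPM in the smallest KYSE30 library). Alternatives were other scalings, filters, DESeq2 1.42.0, a replicate block, a joint fit and leaving out each library. Coordinates are from GENCODE release 29 and promoters from RefSeq.

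The genes and lists were chosen with earlier results of these data known. Library values are given for genes beyond a log2 change of 1 in either line and the 2 most abundant of each role group (46 genes), for 9 pathway genes picked by role (another so picked is not reported here) and for the 3 largest called changes per direction and line among the other lists at a mean of at least 1 normalized CPM.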

Additional observations from a re-analysis of the deposited data

Results flagged for a closer look

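Several genes outside the set responded differently in KYSE30 and in the libraries labelled U138MG, with an adjusted p under 0.05 in the edgeR interaction test over 12 libraries (3 per group). Those picked by role carry their p. The lists were made with earlier results of these data known, so that p is a description too. The log2 difference of the treatment effect, KYSE30 minus U138MG, was above 0 for IFNAR1 (0.36 ± 0.07, adjusted p = 1.0e-04), STAT2 (0.70 ± 0.11, adjusted p = 6.0e-05) and IRF1 (1.15 ± 0.08, adjusted p = 3.7e-13). It was below 0 for IFNAR2 (-0.92 ± 0.13, adjusted p = 2.5e-07).

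Other genes were named because their change in 1 line was among the largest, so their differences are a description without a p. The difference was above 0 for the sensors IFIH1 (1.49 ± 0.14) and TLR3 (1.82 ± 0.15). It was also above 0 for TDRD7 (1.83 ± 0.11), TRANK1 (3.25 ± 0.18), TMEM140 (2.57 ± 0.26) and IDO1 (2.91 ± 0.63, and 3.62 without KYSE30 DMSO replicate 2). IDO1 did not pass the filter on low counts within KYSE30, where its groups overlapped, so it has no fold change there. The difference was below 0 for SOCS3 (-3.60 ± 0.13), NLRC5 (-0.76 ± 0.12) and WARS1 (-1.80 ± 0.09). Of the pathway list, 18 of 37 genes tested differed with the KYSE30 effect above and 4 with it below, and of the further list 50 and 12 of 78, against 24.4% and 25.5% of the 18405 genes tested. Line and batch cannot be told apart in each of these comparisons.

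Within the set, 20 genes had every PTDSS1i library above DMSO in KYSE30 and below DMSO in the libraries labelled U138MG, against 6.07% of all genes tested. The fitted difference between lines was past the adjusted p for 19 of the 20, XAF1 being the other, and it is a description because the genes were chosen with these contrasts known. They included IFIT1, OAS2, IFI6, IFI44, IFI44L, HERC6, BST2, TRIM22 and SAMD9L.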

How the results depend on the processing

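Of 2814 recomputed fold changes and line differences of single named genes, 2734 kept their side of the threshold, 51 fell below it and 29 passed it. None that was called in either fit turned round. The 2734 include turns of direction near 0 in genes called in neither fit, such as UBA7 in KYSE30 without DMSO replicate 1 (0.01 to -0.15). The count of interferon-stimulated genes called in KYSE30 stayed within 1.5 times 34 under each alternative. Without the fold limit, the genes called in the libraries labelled U138MG came to 17 higher and 20 lower. The pathway genes then came to 23 higher and 3 lower in KYSE30 and 18 and 10 in the other line, and the further genes to 52 and 6, and 34 and 28. With at least 10 counts in every library, fewer low genes were tested and KYSE30 had 3 pathway and 9 further genes called higher. In the libraries labelled U138MG the median log2 fold change of the set, -0.07, was -0.22 with library size alone or upper-quartile scaling, as the median of all genes moved with it, -0.039 without a filter and -0.093 with the strict filter. There, 5 of the set were called higher without a filter, and 4 pathway genes higher and 1 lower. The strict filter and DESeq2 each left 1 pathway gene lower.

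Leaving out each library in turn gave 28 to 35 of the set called higher in KYSE30, the lowest without DMSO replicate 1, with medians from 1.08 to 1.30. In the libraries labelled U138MG it gave 2 to 4 called higher, 9 to 10 lower, medians from -0.094 to -0.051, 1 to 2 pathway genes lower and 4 to 7 further genes higher, the 7 without DMSO replicate 1. The single pathway gene lower was reached without DMSO replicate 2 or 3 or PTDSS1i replicate 2 or 3. The difference between lines was called for 46 to 51 genes.

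Replicate numbers are shared by the groups, but same-numbered libraries deviated together only weakly over all genes (r of 0.08, 0.07 and 0.02 in KYSE30, and 0.01, -0.0029 and 0.05 in the other line), so the numbers were not taken to pair them. In KYSE30 each DMSO library still correlated best with its own number, and over the 52 genes of the set r was 0.59, 0.51 and 0.11, while in the other line DMSO replicate 2 correlated best with PTDSS1i replicate 1. With the replicate block, 35 of the set were called higher in KYSE30, 3 higher and 9 lower in the other line, the medians were 1.15 and -0.07, and 50 genes differed between lines. The pathway genes called came to 5 and 0, and 2 and 2, and the further genes to 15 and 0, and 4 and 11. Depth limits HERC5 and RSAD2 in KYSE30 and the type III interferons, which had few reads.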

Other observations

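Across the 48 genes of the set tested in both lines, those with the lowest level in KYSE30 DMSO replicate 1 tended to be the ones with lower levels under PTDSS1i in the libraries labelled U138MG. Pearson's r between the log2 ratio of that library to the mean of DMSO replicates 2 and 3 and the log2 fold change in the libraries labelled U138MG was 0.56, and Spearman's rho was 0.42. Over 13986 genes tested in both lines the values were 0.17 and 0.17. The measures come from different libraries of different lines, they were compared after the values were seen, and genes are not independent replicates, so this is a description. IFI44L (ratio 0.364, fold change -2.99), BST2 (0.333, -1.54) and TRIM22 (0.503, -2.12) had low ratios and fell. OASL (0.824, 2.05), IFIT2 (0.850, 1.07), ISG20 (0.824, 1.59) and APOL6 (0.820, 0.97) had higher ratios and rose. Other genes went against this tendency. HERC5 (0.446, 0.42) and IFITM1 (0.488, 0.17) had low ratios and rose, and CMTR1 (0.999, -0.30) and MX1 (0.954, -0.59) had ratios near 1 and fell.

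The correlation of the fold changes themselves between the lines was 0.29 (Pearson) and 0.27 (Spearman) over the 48 genes, against 0.38 and 0.35 over the 13986 genes.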
